A study of Mus musculus with 16 samples.

Results

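The genes described here are 9 genes that mark medium spiny neurons, the main neurons of the striatum: Drd1, Drd2, Adora2a, Penk, Ppp1r1b, Rgs9, Rasd2, Pde10a and Scn4b. They were chosen by name, and all of their transcripts in the transcript matrices of both tissues were taken, which gave 39 of the 141102 matched transcripts and 9 of 55266 genes. The study sequenced bulk RNA from frontal cortex (FC) and cerebellum (Cere) of Upf3b-KO mice and of control (Ctrl) mice to find RNAs that depend on Upf3b, whose product takes part in NMD, the decay pathway for RNAs that hold, among other features, an early stop codon. Each tissue and genotype had 4 libraries, and per the study's description the tissues came from 4 adult Upf3b-null mice and 4 littermates. No treatment is named for either group. The null allele is not limited to medium spiny neurons, and the exact age, sex and strain of the mice are not given in the sources used here.

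Medium spiny neurons are inhibitory projection neurons that receive cortical and dopamine input, and they fall into a pair of classes. Neurons of the direct pathway carry the dopamine receptor D1 (Drd1), which raises cAMP through stimulatory G proteins, and they make substance P and dynorphin. Neurons of the indirect pathway carry the dopamine receptor D2 (Drd2), which lowers cAMP, together with the adenosine A2a receptor (Adora2a), which raises it, and they make enkephalin from the Penk precursor. The other 5 genes are shared by both classes: Ppp1r1b encodes DARPP-32, a protein phosphatase inhibitor switched on by protein kinase A, Pde10a a phosphodiesterase that breaks down cyclic nucleotides, Rgs9 a regulator that ends G protein signalling, Rasd2 the small GTPase Rhes, and Scn4b a beta subunit of voltage-gated sodium channels. Several of them are also made outside the striatum, for example Penk and Scn4b in cerebellar neurons.

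Levels are given as CPM, the counts of a gene or transcript relative to the total of its library, on the same scale for all libraries. The 15 libraries used held between 27660078 and 35238677 counts, so that the floor of 3 counts lay between 0.0851 and 0.109 CPM. The library labelled Cere Upf3b-KO replicate 1 held only 64981 counts, of which 41 fell on the 9 genes, and it was left out of all values unless named. Upf3b, the targeted gene, stood at 14.2 to 15.7 CPM in the FC Ctrl libraries and at 0.229 to 0.857 CPM in FC Upf3b-KO, and at 20.9 to 23.6 CPM in Cere Ctrl against 0.617 to 0.965 CPM in Cere Upf3b-KO. Libraries of a group lay close together: the variance between pairs of libraries was 2.17 to 2.70 times that of counting alone, and the labels number the replicates without saying that they came from separate animals, so p-values measure only the spread between these libraries. In bulk tissue a change in the number of cells of a type and a change in RNA per cell cannot be told apart.

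The labelled tissues were compared with marker lists. The FC libraries held the cortical glutamatergic neuron list at a summed 1722 to 1789 CPM in Ctrl and 1650 to 1663 CPM in Upf3b-KO, and the Cere libraries held the cerebellar neuron list at 8088 to 8247 CPM in Ctrl and 3280 to 3302 CPM in Upf3b-KO. Marker lists of other structures moved with genotype in both tissues. The choroid plexus list (Ttr, Kl, Clic6 and 5 others) marks the secretory epithelium of the brain ventricles. It summed to 17.9 to 18.7 CPM in FC Ctrl and 2167 to 2222 CPM in FC Upf3b-KO. Of its 8 genes 8 were called higher, beside 9.16% of all genes. In FC Ctrl, Otx2 and Slc4a5 of that list were under the floor on average, at 0.0384 and 0.0764 CPM. The same list summed to 29.4 to 33.4 CPM in Cere Ctrl and 1392 to 1415 CPM in Cere Upf3b-KO. There 7 of 8 were called higher, beside 10.3% of all genes. The same limit held in Cere Ctrl for Aqp1, Folr1 and Kcne2, at 0.0548, 0.105 and 0.1115 CPM. The list of striatal cholinergic interneurons (Chat, Slc5a7 and 4 others) summed to 1.62 to 2.12 CPM in FC Ctrl and 12.2 to 14.7 CPM in FC Upf3b-KO, and to 0.217 to 0.495 CPM in Cere Ctrl, where Chat, Slc18a3 and Lhx8 were at 0 in every library, against 84.9 to 91.5 CPM in Cere Upf3b-KO. Gbx2 of that list is also on the thalamus list. These shifts lie beside every genotype difference below, and their part in the differences was not tested.

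**Figure D1:**
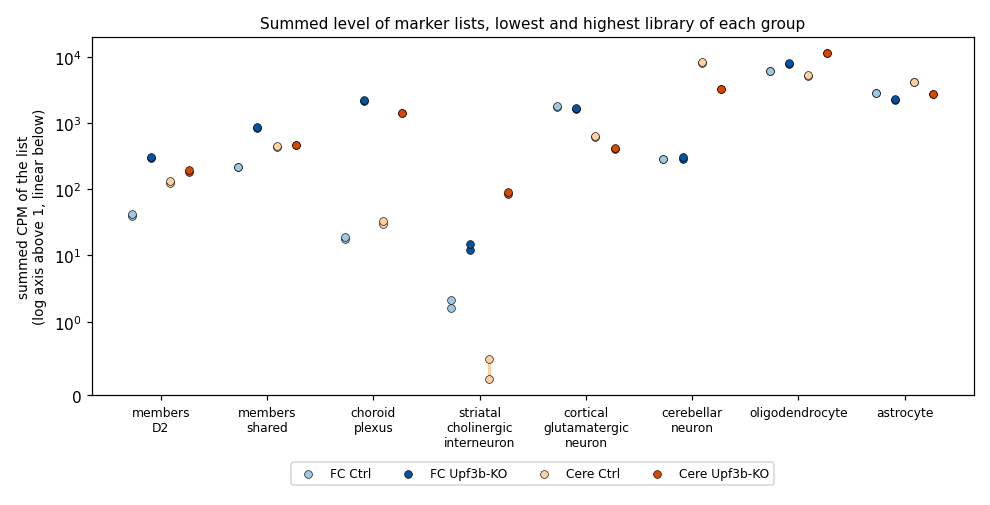
Summed CPM of marker lists (vertical axis, logarithmic above 1 and linear below) in the 4 groups, with the lowest and the highest library of each group joined by a line. The choroid plexus list was at no more than 33.4 CPM in Ctrl and at 1392 CPM or more in Upf3b-KO in both tissues, the 5 shared medium spiny neuron genes and the 3 D2 genes were higher in FC Upf3b-KO than in FC Ctrl, and the cerebellar neuron list was lower in Cere Upf3b-KO.

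In frontal cortex, all 9 genes rose in Upf3b-KO. A call needed an adjusted p below 0.01 with more than a 2-fold change, and 9.16% of the 18218 genes tested met that rule in the higher direction and 1.06% in the lower. The increases ran from 2.49-fold for Rasd2 to 14.3-fold for Adora2a, with a median log2 fold change of 2.06 over the 9 genes beside 0.0037 over all genes tested. For each of the 9, every Upf3b-KO library lay above every Ctrl library, which was so for 33.1% of all genes. All 9 calls held with each library left out in turn and under the other tests, scalings and filters tried.

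**Figure D2:**
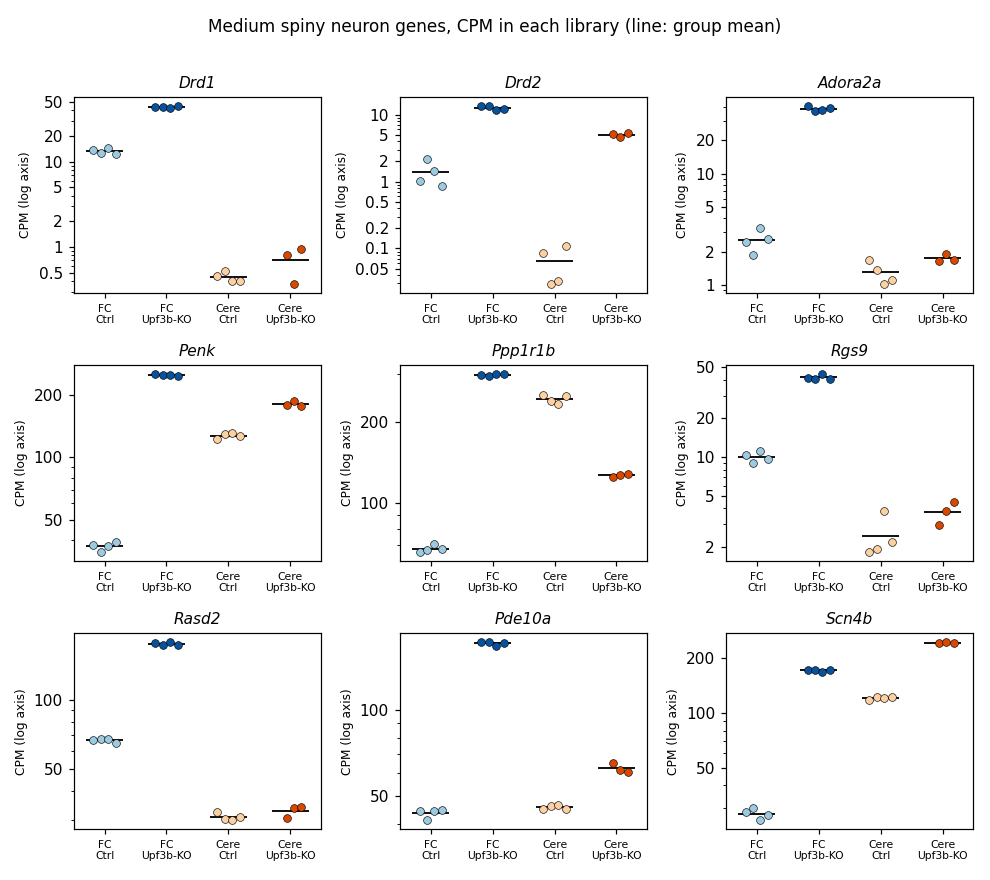
CPM of the 9 genes in each library (vertical axes, logarithmic and different for each gene), by tissue and genotype; points are libraries and lines are group means. In frontal cortex the 4 Upf3b-KO libraries lie above the 4 Ctrl libraries for every gene, while in cerebellum Ppp1r1b lies lower in Upf3b-KO and Drd1, Adora2a, Rgs9 and Rasd2 overlap between genotypes.

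Drd1 (chr13:54204872-54209760, minus strand, GRCm39) encodes the receptor that defines the direct pathway. The FC Ctrl libraries held 13.7, 12.7, 14.4 and 12.4 CPM of Drd1 and the FC Upf3b-KO libraries 43.9, 43.3, 42.2 and 44.9 CPM. The groups did not overlap, and the log2 fold change was 1.64 ± 0.052 (SE, adjusted p = 1.1e-16). Most of it came from the transcript ENSMUST00000021932, at 12.7 ± 0.64 CPM in Ctrl and 39.8 ± 2.71 CPM in Upf3b-KO (SD, n = 4 each). The other protein-coding transcript, ENSMUST00000221470, has the same start and end and the same length of 3942 nt. It was at 0, 0, 1.94 and 0 CPM in FC Ctrl and at 2.01, 0, 2.22 and 8.29 CPM in FC Upf3b-KO, and the groups overlapped (log2 fold change 2.60 ± 1.96, adjusted p = 0.48).

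Drd2 (chr9:49251654-49319477, plus strand) is the dopamine receptor of the indirect pathway. Drd2, with 1 transcript in the matrices, was at 1.02, 2.18, 1.45 and 0.869 CPM in FC Ctrl and at 13.2, 13.4, 11.8 and 12.0 CPM in FC Upf3b-KO. The lowest Upf3b-KO library stood well above the highest Ctrl library, and the log2 fold change was 3.11 ± 0.17 (adjusted p = 1.1e-12). Its Ctrl libraries varied more than those of any other of the 9 genes, with a coefficient of variation of 42.6%.

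Adora2a (chr10:75152560-75170628, plus strand), the adenosine receptor that opposes Drd2 in the same neurons, had the largest increase of the 9. It was at 2.46, 1.88, 3.25 and 2.61 CPM in FC Ctrl and at 40.7, 36.6, 37.6 and 39.3 CPM in FC Upf3b-KO. The log2 fold change was 3.84 ± 0.091 (adjusted p = 7.9e-19), and Adora2a-201 carried 98.5% ± 0.61 of the gene's counts in Ctrl and 98.6% ± 0.71 in Upf3b-KO (SD, n = 4 each).

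Penk (chr4:4132722-4141856, minus strand) encodes proenkephalin, which is cut at pairs of basic residues into Met-enkephalin and Leu-enkephalin, the opioid peptides of the indirect pathway. The coding sequence of Penk-201, read from GENCODE vM39 on GRCm39, holds 6 in-frame Met-enkephalin runs and 1 Leu-enkephalin run, while the annotated and incomplete coding sequence of Penk-202 holds 3 and 0. The first Met run, the Leu run and the last Met run are shown because they are what distinguishes the peptides this gene makes. The capitals are the enkephalin codons. In the first pair of lines the lower-case codons on both sides encode basic residues, while in the third line the codons after the capitals encode Arg and Phe.
Met-enkephalin 1, chr4:4134328-4134354: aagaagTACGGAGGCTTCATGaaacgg
Leu-enkephalin 6, chr4:4133935-4133961: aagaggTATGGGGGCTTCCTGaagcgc
Met-enkephalin 7, chr4:4133842-4133868: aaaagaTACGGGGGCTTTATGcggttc

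Penk was at 37.7, 34.98, 37.3 and 39.4 CPM in FC Ctrl and at 252.3, 251.1, 248.6 and 247.5 CPM in FC Upf3b-KO. The log2 fold change was 2.67 ± 0.028 (adjusted p = 3.3e-25). Penk-201 rose from 36.2 to 239.2 CPM and Penk-202 from 1.13 to 10.7 CPM, and both were called. The share of Penk-201 was 97.0% ± 1.27 in Ctrl and 95.7% ± 0.40 in Upf3b-KO (SD, n = 4 each; exact permutation test, two-sided p = 0.0857, 0.257 after adjustment over the 12 share tests).

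Ppp1r1b (chr11:98239169-98248624, plus strand) had the highest level per length of the 9 in every group. Its product DARPP-32 inhibits protein phosphatase 1 once phosphorylated by protein kinase A, and so passes on the signals of Drd1, Drd2 and Adora2a. FC Ctrl libraries held 65.8, 66.9, 70.2 and 67.6 CPM and FC Upf3b-KO libraries 297.6, 294.2, 299.8 and 299.2 CPM, a log2 fold change of 2.06 ± 0.022 (adjusted p = 3.8e-25). The protein-coding transcript Ppp1r1b-201 (27.3 to 116.0 CPM) and Ppp1r1b-202, annotated as a retained intron (36.4 to 156.1 CPM), rose together. The share of Ppp1r1b-202 was 53.7% ± 3.74 in Ctrl and 52.4% ± 0.39 in Upf3b-KO (SD, n = 4 each; exact permutation p = 0.571). Ppp1r1b-206 was at 0 in 3 FC Ctrl libraries and at 0.108 CPM in the other, against 1.86 to 2.45 CPM in FC Upf3b-KO. With so few Ctrl counts, Ppp1r1b-206 could only be called higher. Its call was lost in 6 of the 8 fits that left out a library.

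Rasd2 (chr8:75940572-75950874, plus strand), whose product Rhes is a small GTPase that dampens dopamine and G protein signalling in striatal neurons, had the smallest increase. It was at 67.0, 67.5, 67.5 and 65.0 CPM in FC Ctrl and at 176.9, 172.1, 177.9 and 173.7 CPM in FC Upf3b-KO. The log2 fold change was 1.32 ± 0.023 (adjusted p = 4.9e-21), and all of its counts in these libraries were assigned to 1 of its 2 transcripts.

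Scn4b (chr9:45049595-45065452, plus strand) encodes the beta-4 subunit that shapes resurgent current through sodium channels in fast-firing neurons. Its only transcript in the matrices, Scn4b-201, was at 28.5, 30.1, 25.7 and 27.3 CPM in FC Ctrl and at 172.4, 173.4, 167.7 and 172.6 CPM in FC Upf3b-KO. The log2 fold change was 2.55 ± 0.034 (adjusted p = 4.0e-23).

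Rgs9 (chr11:109116158-109189025, minus strand) has a long form known from striatum and a short form known from retina, which differ at their ends. The long form, ENSMUST00000020920, with 19 exons and a coding length of 2025 nt, splices from exon 17 to the next exon, whereas the short form, ENSMUST00000106706, with a coding length of 1452 nt, reads on from exon 17 and ends 57 coding nt later, its stop codon included. The bases on both sides of that junction are shown because they are what sets these transcripts apart. Capitals mark the bases past the junction, 5′ to 3′ on the transcript.
Rgs9 long form, chr11:109126726-109126740 joined to chr11:109118416-109118430: gtggacatcacccagCCAGGTCAGCACTTG
Rgs9 short form, chr11:109126711-109126740: gtggacatcacccagGTCATGAGCAAGCTG

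Rgs9 as a gene was at 10.3, 8.94, 11.3 and 9.71 CPM in FC Ctrl and at 41.6, 40.5, 44.3 and 40.8 CPM in FC Upf3b-KO, a log2 fold change of 1.98 ± 0.061 (adjusted p = 6.8e-17). The long form was at 8.02, 6.91, 6.33 and 7.09 CPM in FC Ctrl and 37.8, 36.03, 39.2 and 38.2 CPM in FC Upf3b-KO, and was called higher with a log2 fold change of 2.35 ± 0.078. The short form was at 1.62, 1.17, 2.55 and 1.16 CPM in FC Ctrl and 1.14, 1.62, 1.63 and 1.499 CPM in FC Upf3b-KO, where the groups overlapped (log2 fold change -0.22 ± 0.32). The share of the long form in the gene's counts was 71.1% ± 10.1 in Ctrl and 90.6% ± 2.32 in Upf3b-KO (SD, n = 4 each; exact permutation p = 0.0286, the smallest this design allows, and 0.171 after adjustment over the 12 shares). In cerebellum, the long form was at 0.905, 0.541, 1.84 and 0.540 CPM in Ctrl and 2.40, 2.80 and 2.84 CPM in Upf3b-KO, and its share was 37.8% ± 13.0 (n = 4) against 72.6% ± 9.01 (n = 3; exact permutation p = 0.0571, the smallest for 4 against 3, and 0.229 adjusted). Its log2 fold change there was 1.49 ± 0.48 and not called by edgeR (adjusted p = 0.067), but it was called by DESeq2 (1.49, adjusted p = 0.0094), with all groups in 1 fit (1.48, adjusted p = 0.0036) and without Cere Ctrl replicate 3 (2.02, adjusted p = 0.0073).

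Pde10a (chr17:8744204-9205482, plus strand) had 14 transcripts in the matrices, 10 of them above 0 in a library used. Most counts went to Pde10a-202, which is protein-coding over 2388 nt, and to Pde10a-205, which carries the annotated type nonsense-mediated decay. Pde10a-205 lacks exon 5 of Pde10a-202 (chr17:9149342-9149391, 50 nt, not a multiple of 3), so its frame shifts and its stop codon falls in the next exon, with 16 exon junctions after it and 1761 nt to the last of them. Pde10a-202 has no junction after its stop codon. The junctions and that stop codon are shown because they are where the reading frames of the pair part. Capitals mark the exon after the junction in the first 2 lines and the stop codon in the third.
Pde10a-202, chr17:9148030-9148044 joined to chr17:9149342-9149356: gcatcatcaggatagCCACAAAAGCCGACG
Pde10a-205, chr17:9148030-9148044 joined to chr17:9159973-9159987: gcatcatcaggatagAGCCTGTGTGTGTTC
Pde10a-205 stop codon, chr17:9160053-9160082: caccatctctgcctacgtggccaagtcTAG

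Pde10a as a gene was at 44.2, 41.2, 44.4 and 44.6 CPM in FC Ctrl and at 172.6, 172.2, 167.3 and 171.4 CPM in FC Upf3b-KO, a log2 fold change of 1.90 ± 0.028 (adjusted p = 1.6e-22). Pde10a-202 was at 30.5, 32.0, 27.3 and 35.3 CPM in FC Ctrl and at 141.2, 159.6, 141.7 and 151.2 CPM in FC Upf3b-KO, and was called higher with a log2 fold change of 2.18 ± 0.080. The decay-annotated Pde10a-205 was at 11.4, 7.33, 14.9 and 6.02 CPM in FC Ctrl and at 28.6, 8.77, 23.0 and 17.4 CPM in FC Upf3b-KO. Its groups overlapped, and its log2 fold change of 0.91 ± 0.40 did not pass the test (adjusted p = 0.20). The share of Pde10a-202 was 71.9% ± 8.27 in Ctrl and 86.9% ± 4.69 in Upf3b-KO (SD, n = 4 each; exact permutation p = 0.0286, and 0.171 adjusted). In cerebellum that share was 73.9% ± 15.6 in Ctrl (n = 4) and 58.1% ± 17.1 in Upf3b-KO (n = 3; exact permutation p = 0.229, and 0.549 adjusted), the opposite direction to frontal cortex. There, Pde10a-205 was at 11.6, 0, 1.94 and 14.7 CPM in Ctrl and at 8.28, 22.4 and 27.4 CPM in Upf3b-KO (log2 fold change 1.46 ± 1.27, adjusted p = 0.50). These transcripts share nearly all of their sequence, and the spread of Pde10a-205 between libraries of a group was far wider than that of the gene.

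**Figure D3:**
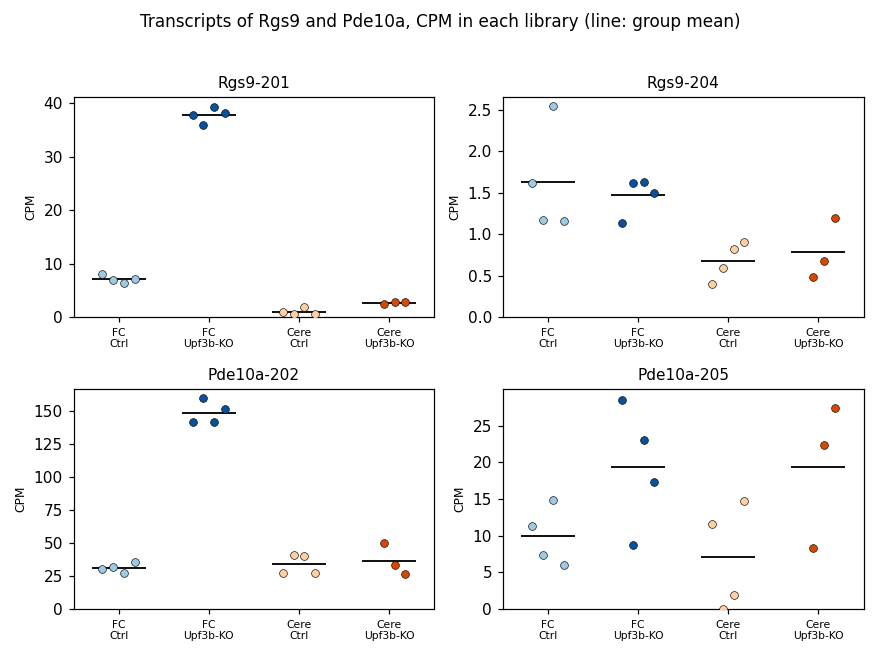
CPM of the long and short forms of Rgs9 (upper panels) and of the protein-coding Pde10a-202 and the decay-annotated Pde10a-205 of Pde10a (lower panels) in each library; points are libraries, lines are group means and all vertical axes start at 0. The long form of Rgs9 and Pde10a-202 separate the genotypes in frontal cortex, whereas the short form of Rgs9 and Pde10a-205 overlap between genotypes in both tissues.

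Per transcript, 22 of the 39 had enough counts to be tested in frontal cortex, and 12 of the 22 were called higher and 0 lower, with 16 higher and 0 lower at an unadjusted p under 0.05 by edgeR and 12 and 0 called by DESeq2. The background was 2.76% of 42047 transcripts called higher and 0.461% lower. The 12 were the leading transcript of each gene, Penk-202, and Ppp1r1b-201 and Ppp1r1b-206 beside Ppp1r1b-202. Of these, Ppp1r1b-206 was under the minimum count of the filter in every FC Ctrl library, at 3.47 counts or less. It was tested only because of its 62.3 to 79.5 counts in FC Upf3b-KO, so it could only be called higher. The 17 transcripts left out by the filter were each at 0.330 CPM or less on average in both genotypes, and 6 of them were at 0 in every FC library.

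Drd2, Adora2a and Penk had larger fold changes than Drd1 in frontal cortex. The ratio of Drd2 to Drd1 CPM was 0.0744, 0.172, 0.101 and 0.070 in the FC Ctrl libraries and between 0.268 and 0.309 in FC Upf3b-KO. The ratio of Adora2a to Drd1 lay between 0.148 and 0.226 in FC Ctrl and between 0.845 and 0.926 in FC Upf3b-KO, and that of Penk to Drd1 between 2.59 and 3.17 and between 5.52 and 5.89. None of the 3 ratios overlapped between the genotypes. Counted per length, as TPM computed from annotated transcript lengths, the mean ratio of Drd2 to Drd1 was 0.132 ± 0.047 in FC Ctrl and 0.360 ± 0.024 in FC Upf3b-KO, and that of Adora2a to Drd1 was 0.273 ± 0.063 and 1.19 ± 0.049 (SD, n = 4 each). The fold changes of the D2 genes (8.64 for Drd2, 14.3 for Adora2a and 6.36 for Penk) were all above the 3.11 of Drd1, while the 5 shared genes ran from 2.49 for Rasd2 to 5.84 for Scn4b, with Pde10a at 3.72, Rgs9 at 3.94 and Ppp1r1b at 4.18. The direct pathway is represented among the 9 by Drd1 alone, and these ratios are a description without a test. In the longer lists given below, the median log2 fold change in frontal cortex was 0.72 for 7 other direct pathway genes and 0.46 for 4 other indirect pathway genes.

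**Figure D4:**
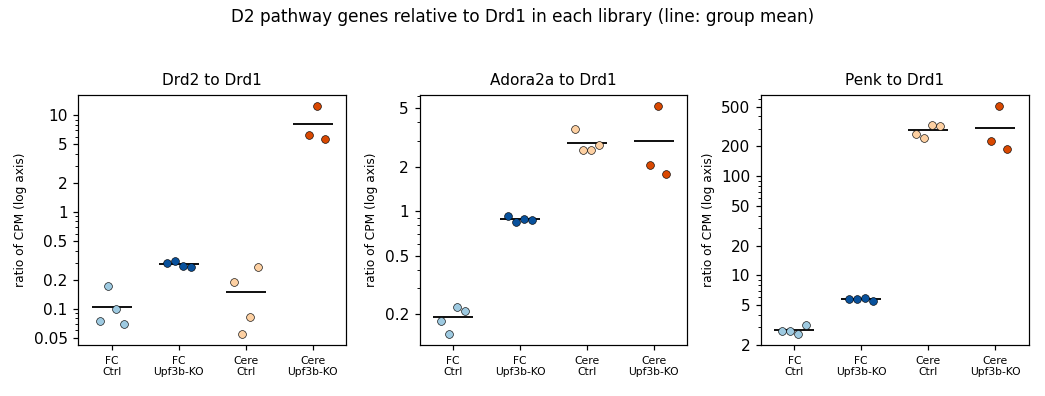
Ratio of the CPM of Drd2, Adora2a and Penk to that of Drd1 in each library (vertical axes, logarithmic), by tissue and genotype; points are libraries and lines are group means. In frontal cortex all 3 ratios are higher in the 4 Upf3b-KO libraries than in the 4 Ctrl libraries, while in cerebellum only the ratio of Drd2 to Drd1 separates the genotypes.

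In cerebellum the 9 genes did not move together. Of the 9, only Drd2 was called higher and 0 lower, beside 10.3% and 2.86% of the 17785 genes tested, and DESeq2 gave the same counts. By the looser rule, an adjusted p below 0.05 for any size of fold, 5 were higher (Drd2, Penk, Scn4b, Rgs9 and Pde10a) and 1 was lower (Ppp1r1b), beside 33.1% and 31.3% of all genes. The median log2 fold change of the 9 was 0.46, beside 0.0077 over all genes. All Upf3b-KO libraries lay above all Ctrl libraries for 4 of the 9 genes and below them for 1, beside 36.3% and 27.1% of all genes.

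Drd2 was close to the detection limit in Cere Ctrl, with 3, 1, 1 and 3 counts in the 4 libraries (0.0868, 0.0294, 0.0330 and 0.109 CPM). It was at 5.06, 4.597 and 5.38 CPM in Cere Upf3b-KO, 490 counts in all against 8. The ratio of these rates was 79.1, with an exact 95% interval of 39.8 to 184.3 that covers counting error only, and the change passed the test (adjusted p = 4.1e-13). Drd2 was under the minimum of 10 counts in each Cere Ctrl library and was tested only because of its 145 to 183 counts in Cere Upf3b-KO, so it could only be called higher. With the shallow library in the fit, Drd2 fell under the filter on low counts and could not be tested. Drd1 was at 0.463, 0.529, 0.396 and 0.398 CPM in Cere Ctrl and 0.803, 0.369 and 0.94 CPM in Cere Upf3b-KO, and Adora2a at 1.68, 1.38, 1.02 and 1.12 CPM and 1.64, 1.90 and 1.67 CPM. Neither passed the test (log2 fold changes 0.59 ± 0.39 and 0.36 ± 0.23, adjusted p = 0.20 and 0.17), and both overlapped between the groups. Drd2 thus stood at 0.0556 to 0.273 times the CPM of Drd1 in Cere Ctrl and at 5.72 to 12.5 times in Cere Upf3b-KO, whereas the ratios of Adora2a and of Penk to Drd1 overlapped between the genotypes.

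Ppp1r1b was lower in Cere Upf3b-KO, opposite to its increase in frontal cortex. It was at 250.8, 239.3, 232.0 and 248.7 CPM in Cere Ctrl and at 125.0, 127.1 and 128.4 CPM in Cere Upf3b-KO, a log2 fold change of -0.99 ± 0.026 (adjusted p = 1.3e-16) that lay just inside the 2-fold limit. Without Cere Ctrl replicate 3 it was -1.01 and was called lower. The protein-coding Ppp1r1b-201 (93.3 to 48.6 CPM) and the retained-intron Ppp1r1b-202 (127.2 to 65.7 CPM) were lower by similar amounts. Beside it, 6 of the 8 cerebellar neuron markers were called lower in Cere Upf3b-KO, among them Car8 from 3198 to 1115 CPM and Calb1 from 2601 to 1010 CPM, both known from Purkinje cells, which also make DARPP-32; their part in the Ppp1r1b difference was not tested.

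Scn4b was at 118.6, 122.8, 121.6 and 122.1 CPM in Cere Ctrl and 243.3, 245.6 and 243.7 CPM in Cere Upf3b-KO. Its log2 fold change was 0.96 ± 0.021 in the gene fit (adjusted p = 7.8e-18) and 1.01 ± 0.019 in the transcript fit. The fits scaled the libraries separately, so the same counts fell on either side of the 2-fold limit. The transcript fell under that limit with a minimum count of 30 (0.9989) and with a replicate block (0.9965). It also did so with all groups in 1 fit (0.9994) and without Cere Ctrl replicate 1 (0.9926). Penk was at 122.8 to 131.0 CPM in Cere Ctrl and 177.7 to 188.1 CPM in Cere Upf3b-KO (log2 fold change 0.46 ± 0.027, adjusted p = 1.8e-11). Pde10a was at 44.9 to 46.4 CPM and 60.5 to 65.3 CPM (0.40 ± 0.036, adjusted p = 1.2e-08). Rgs9 was at 1.82 to 3.80 CPM and 2.97 to 4.50 CPM, where the groups overlapped (0.59 ± 0.22, adjusted p = 0.025). Rasd2 was at 29.95 to 32.6 CPM and 30.5 to 34.1 CPM and did not pass the test (0.04 ± 0.050, adjusted p = 0.52). Of the 19 member transcripts tested in cerebellum, 2 were called higher (those of Drd2 and Scn4b) and 0 lower, beside 3.45% and 1.31% of 44259 transcripts. At an unadjusted p under 0.05, 5 were higher and 3 lower, and DESeq2 called 4 and 0, adding the long form of Rgs9 and Pde10a-204 (1.12, adjusted p = 4.0e-05).

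The genotype difference itself differed between the tissues for all 9 genes. In the test of the tissue by genotype interaction, Drd2 was called with a larger increase in cerebellum and the other 8 with a smaller or opposite change there, beside 6.36% and 3.04% of 19831 genes called in those directions. The interaction was largest for Adora2a, at -3.49 ± 0.22 on the log2 scale (adjusted p = 6.0e-13), and for Ppp1r1b, at -3.06 ± 0.034 (adjusted p = 2.4e-28). It was 3.05 ± 0.46 for Drd2 (adjusted p = 3.6e-06), a value that rests on the 8 counts of the Cere Ctrl libraries. The smallest was that of Drd1, at -1.07 ± 0.28 (adjusted p = 0.0022), which was not called without Cere Ctrl replicate 2 (-0.98) or without Cere Upf3b-KO replicate 3 (-0.72). The other 5 lay between -1.29 for Rasd2 and -2.22 for Penk.

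**Figure D5:**
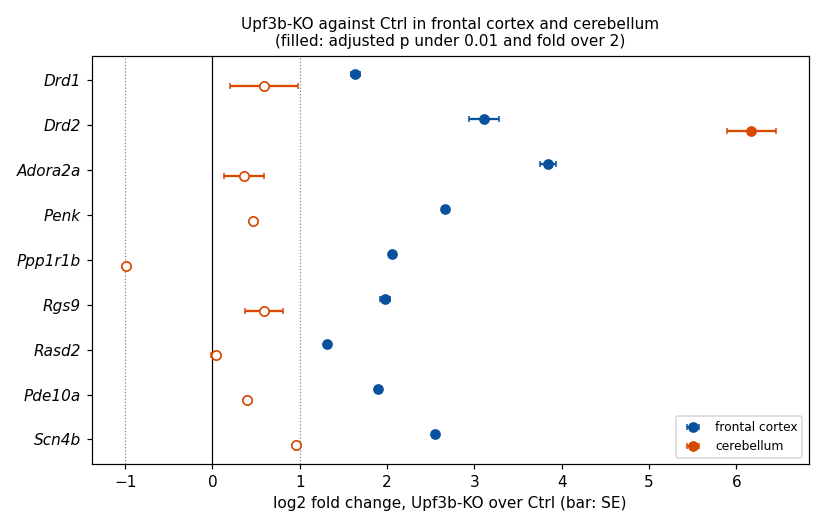
Log2 fold change of Upf3b-KO over Ctrl for the 9 genes in frontal cortex and cerebellum (horizontal axis; bars are standard errors, and dotted lines mark a 2-fold change). Filled points passed an adjusted p under 0.01 and a fold over 2: all 9 in frontal cortex, between 1.32 and 3.84, and only Drd2 in cerebellum.

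Between the control tissues, the 9 genes split by tissue. Penk, Ppp1r1b and Scn4b were called higher in Cere Ctrl than in FC Ctrl (log2 fold changes of 1.75 ± 0.031, 1.82 ± 0.024 and 2.09 ± 0.032), and Drd1, Drd2, Rgs9 and Rasd2 lower (-4.90 ± 0.14, -4.40 ± 0.38, -2.09 ± 0.15 and -1.14 ± 0.034), beside 8.74% and 16.8% of all genes. Adora2a (-0.98 ± 0.16), close to the 2-fold limit, and Pde10a (0.04 ± 0.032) were not called by edgeR. DESeq2, median-of-ratios scaling and the fit with no filter on low counts each called 3 of the 9 higher and 5 lower, against 3 and 4.

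Levels of different genes were ordered per length, in TPM. Ppp1r1b came first in every group, at 113.1 ± 3.73 TPM in FC Ctrl, 500.0 ± 3.48 in FC Upf3b-KO, 425.9 ± 12.7 in Cere Ctrl and 213.4 ± 3.30 in Cere Upf3b-KO (SD, n = 3 in the last group and 4 in the others). In FC Ctrl it was followed by Rasd2 (54.8), Penk (35.6), Pde10a (14.1), Scn4b (13.3), Rgs9 (9.76), Drd1 (8.80), Adora2a (2.38) and Drd2 (1.18), where the libraries of Pde10a and Scn4b, of Rgs9 and Drd1, and of Adora2a and Drd2 overlapped. In FC Upf3b-KO the order was Penk (246.4), Rasd2 (144.0), Scn4b (81.7), Pde10a (55.0), Rgs9 (40.3), Adora2a (36.03), Drd1 (30.2) and Drd2 (10.8). There Adora2a stood above Drd1 on average, and in each of the 4 libraries (1.14 to 1.24 times), although the ranges of Adora2a and Drd1 over libraries overlapped, as did those of Rgs9 and Adora2a. In Cere Upf3b-KO, Drd2 (4.31) had moved above Rgs9 (3.597, overlapping), Adora2a (1.69) and Drd1 (0.513), from the last place it held in Cere Ctrl (0.0577).

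Other genes of the direct pathway were taken from a list of 7. In frontal cortex 3 of them were called higher and 1 lower, beside 9.16% and 1.06% of all genes. Tac1, the substance P precursor, rose from 17.0 ± 1.15 to 36.4 ± 1.002 CPM, and Slc35d3, a transporter-like protein that supports D1 receptor traffic, from 1.16 ± 0.37 to 6.99 ± 0.28 CPM (SD, n = 4 each). The third was Isl1, a transcription factor of D1 neurons, from 0.158 to 2.11 CPM. Chrm4, the muscarinic receptor of D1 neurons, fell from 3.81 ± 0.20 to 0.764 ± 0.20 CPM (log2 fold change -2.39 ± 0.19, adjusted p = 5.2e-10), against the direction of Drd1. In cerebellum 4 of the 6 tested were called higher, beside 10.3% of all genes: Tac1 (0.202 to 18.6 CPM), Pdyn, the dynorphin precursor (0.0557 to 5.42 CPM), Slc35d3 (0.478 to 4.25 CPM) and Isl1 (0.00904 to 1.69 CPM), while Drd1 itself did not pass. Tac1, Pdyn and Isl1 averaged under the minimum of 10 counts in Cere Ctrl and were tested only through their Upf3b-KO levels, so they could only be called higher, as also holds for Isl1 in frontal cortex. Ebf1, a transcription factor of the same list, was lower (86.0 to 50.5 CPM, log2 fold change -0.82 ± 0.044, adjusted p = 5.5e-12), and the list summed to 87.2 to 100.9 CPM in Cere Ctrl and 87.0 to 89.0 CPM in Cere Upf3b-KO. In frontal cortex Pdyn was at 19.6 CPM in Ctrl and 34.0 CPM in Upf3b-KO.

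From a list of 4 further genes of the indirect pathway, 1 was called higher in frontal cortex, the orphan receptor Gpr6, from 2.30 ± 0.59 to 7.24 ± 0.46 CPM (log2 fold change 1.58 ± 0.14). In cerebellum 2 of the 4 were tested and 1 was called higher, beside 10.3% of all genes. It was the orphan receptor Gpr52, from 0.288 to 1.39 CPM. Gpr52 averaged under the minimum of 10 counts in Cere Ctrl, so a lower level in Upf3b-KO could hardly have been tested. The other gene tested, the kainate receptor Grik3, was lower (28.1 to 20.5 CPM, log2 fold change -0.50 ± 0.059, adjusted p = 4.2e-07). The list summed to 27.0 to 31.3 CPM in Cere Ctrl and 21.7 to 23.1 CPM in Cere Upf3b-KO. Gpr6 was at 0 in all Cere Ctrl libraries and at 0.0596 CPM in Cere Upf3b-KO, under the floor.

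Of 21 further genes of both classes, 5 were called higher in frontal cortex and 0 lower, and 17 of the 21 were higher and 2 lower at an adjusted p under 0.05, beside 28.0% and 25.3% of all genes. Syndig1l, a striatal membrane protein, rose from 6.51 ± 1.09 to 30.8 ± 0.93 CPM, and Rxrg, a retinoid receptor, from 7.02 ± 0.37 to 16.6 ± 0.98 CPM (SD, n = 4 each). Also called were the retinoic acid receptor Rarb (4.28 to 10.6 CPM) and the transcription factor Six3 (0.30 to 2.68 CPM). The median log2 fold change of the 21 was 0.50, beside the 2.06 of the 9 genes. In cerebellum 6 of the 16 tested were called higher and 1 lower. Meis2, a transcription factor, rose from 2.26 ± 0.40 (n = 4) to 63.4 ± 2.43 CPM (n = 3) and Pde1b, a calcium-dependent phosphodiesterase, from 25.9 ± 0.61 to 81.7 ± 3.70 CPM, while Ppp1r16b, a regulatory subunit of protein phosphatase 1, fell from 411.9 ± 5.83 to 211.5 ± 1.79 CPM.

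Of 17 tested genes for other dopamine receptors, G proteins, protein kinase A subunits and phosphatases, 0 were called in either direction in frontal cortex, beside 9.16% and 1.06% of all genes, and 6 were higher and 7 lower at an adjusted p under 0.05, with log2 fold changes between -0.48 and 0.60. At an unadjusted p under 0.05 they were 7 and 7. In cerebellum 1 of 18 was called higher, Drd5, from 0.440 to 3.47 CPM. Of 7 other sodium channel subunits, 0 were called in frontal cortex (log2 fold changes -0.24 to 0.46, 1 higher and 2 lower at an adjusted and at an unadjusted p under 0.05), beside 2.55 for Scn4b, and 2 were called higher in cerebellum, the alpha subunit Scn3a (1.19 to 20.1 CPM) and the beta subunit Scn3b (2.10 to 21.3 CPM). Of 7 opioid peptide and receptor genes beside Penk, Oprk1, the kappa receptor at which dynorphin acts, was the only call in frontal cortex (3.41 ± 0.56 to 12.3 ± 0.30 CPM, SD, n = 4 each). All 7 were called higher in cerebellum, beside 10.3% of all genes. There Oprl1 rose from 8.54 to 47.8 CPM and Oprk1 from 0.269 to 6.60 CPM. Oprd1, the delta receptor at which enkephalin acts, rose from 0.248 to 7.26 CPM. In every Cere Ctrl library 5 of the 7 were under 1 CPM. Pdyn, Oprd1 and Oprk1 averaged under the minimum of 10 counts there. Their Upf3b-KO levels brought them into the test, so a lower level could hardly have been called.

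Genes of other cell types and regions were counted by the same rule, and their part in the values above was not tested. Some of those counted, such as Chat in both tissues, had too few counts in Ctrl and entered the test only through the group where they were high, so the counts are a description. For the lists of other genes, in the genotype comparison of each tissue, DESeq2 called the same number of genes in each direction as edgeR. Of the striatal cholinergic interneuron list 5 of 5 tested were called higher in each tissue: in frontal cortex Slc5a7 from 1.34 to 6.14 CPM, Chat from 0.183 to 3.26 CPM and Lhx8 from 0.0377 to 1.40 CPM, and in cerebellum Slc5a7 from 0.221 to 54.2 CPM. Chat and Slc18a3 had 0 counts in all Cere Ctrl libraries and were at 13.6 and 14.8 CPM in Cere Upf3b-KO, at least 142-fold and 155-fold higher than a floor of 3 counts per library. Lhx8, the factor that marks forebrain cholinergic neurons, was at 0.0655 CPM in Cere Upf3b-KO, under the floor. In frontal cortex 1 of 8 cortical glutamatergic genes was called lower, Fezf2 from 33.2 to 16.8 CPM, and 0 were called of 8 cortical interneuron genes (4 higher and 3 lower at an unadjusted p under 0.05), of 5 oligodendrocyte genes (5 and 0), of 5 astrocyte genes (0 and 5) and of 5 genes of microglia and endothelium (2 and 0). Thalamus had 1 of 6 tested called higher, Prkcd from 11.6 to 28.7 CPM (2 higher and 2 lower at an adjusted p under 0.05), hypothalamus 1 of 5, Avp from 0.501 to 1.25 CPM, midbrain dopamine neurons 0 of 3 (1 higher and 1 lower at an unadjusted p under 0.05) and olfactory bulb 0 of 3 (0 and 2). Cbln1 of the cerebellar list was lower, from 8.49 to 4.01 CPM. In cerebellum 4 of 5 oligodendrocyte genes were called higher, among them Mbp from 2659 to 5818 CPM, 3 of 8 cortical interneuron genes, among them Lamp5 from 0.507 to 122.5 CPM (the other 5 were lower at an adjusted p under 0.05), 3 of 7 thalamus genes, among them Slc17a6 from 9.36 to 156.0 CPM (3 others were lower at that p), 3 of 3 tested hypothalamus genes of 8 listed, among them Gal from 0.416 to 7.29 CPM, 2 of 4 midbrain genes, Slc18a2 and Ddc, and 1 of 4 olfactory bulb genes, Cdhr1. Lower were Slc1a3 of the astrocyte list, from 2755 to 1297 CPM, and Neurod2 of the cortical glutamatergic list, from 81.8 to 41.5 CPM, and 0 of 5 genes of microglia and endothelium were called (3 higher and 0 lower at an unadjusted p under 0.05).

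The genes whose profile over the 4 group means was most like the median profile of the 9 were sought among the 15226 genes whose mean reached 1 CPM, by the root mean square difference of centred log2(CPM + 0.5). The 8 closest were Ift70a2 (0.09), Fam178b (0.09), Tekt2 (0.10), Tekt4 (0.11), Selenov (0.11), Iqch (0.12), Shcbp1l (0.12) and Bspry (0.14), where the median over all genes was 0.99. Tekt2 and Tekt4 encode tektins of ciliary microtubules and Ift70a2 a protein of ciliary transport. All 8 were low in FC Ctrl, between 0.341 and 1.16 CPM, and between 2.98 and 5.57 CPM in FC Upf3b-KO. Of the 9 genes themselves, Pde10a (0.23) and Rasd2 (0.48) lay nearest the median profile. Drd1 (1.75), Scn4b (1.21) and Drd2 (0.999) lay no nearer to it than the median gene did.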

How the data were processed

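The study prepared libraries from ribosome-depleted total RNA of frontal cortex and cerebellum with a SMART-Seq kit and sequenced paired ends. The authors deposited 1 matrix per tissue of expected counts per transcript from RSEM, with GRCm39 and STAR 2.5.2b named in the submitters' processing notes. RSEM divides reads among transcripts that share sequence, so levels of overlapping transcripts depend on that division, and whether counting used strand is not given in the sources used here. Of the annotated genes that overlap the 9, those with a value in the matrices were each at 0.310 CPM or less on average, and the others were not analysed here. Of 142435 transcripts in each matrix, the 141102 whose identifiers are in GENCODE vM39 were summed per gene. Expected counts were rounded to whole numbers for tests. Genes and transcripts were kept with filterByExpr (minimum count 10, minimum total 15), scaled by TMM and fitted with edgeR 4.0.16 (R 4.3.3) (quasi-likelihood F test), and p-values were adjusted over all features tested by the method of Benjamini and Hochberg. A call needed an adjusted p under 0.01 and a fold over 2. SEs were taken from the fitted change and its F statistic. Shares of the leading transcript were compared with exact two-sided permutation tests over libraries (12 tests). CPM were relative to all counts of a library, matched or not, and TPM used the matched transcripts and their annotated lengths. Intervals and floors cover counting error only, and amplified reads are not independent molecules. Alternatives were DESeq2 1.42.0, other scaling, filters and thresholds, a replicate block, all groups in 1 fit, the shallow library added, and each library left out.

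The 9 genes and the lists were chosen with earlier results of these data known. From each list up to 3 called genes per tissue were named, ordered by adjusted p, and genes named beyond these (Isl1 in both tissues, Ebf1 and Grik3 in cerebellum, Rarb, Six3, Otx2, Slc4a5 and Pdyn in frontal cortex, and Gpr6 and Lhx8 in cerebellum) were chosen after their values were seen. Results on some items are not reported here.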

Additional observations from a re-analysis of the deposited data

Results flagged for a closer look

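The genotype difference differed between the tissues for all 9 genes by the test of the interaction (cerebellum minus frontal cortex, log2). It was -1.07 for Drd1, 3.05 for Drd2, -3.49 for Adora2a, -2.22 for Penk, -3.06 for Ppp1r1b, -1.60 for Scn4b, -1.38 for Rgs9, -1.29 for Rasd2 and -1.5 for Pde10a.

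For Pde10a in FC Ctrl, the lowest library at 41.2 CPM stood apart from the other 3 libraries (44.2 to 44.6 CPM). It was the only such case in 27 groups of 4 tested. Chance gives about 1 in 20 such groups, so this case was not beyond chance.

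In the shallow library Cere Upf3b-KO replicate 1, which was left out of the comparisons except where it was added as an alternative, Scn4b was at 277.0 CPM from 18 counts (95% Poisson interval 164.2 to 437.8 CPM), above the highest Cere Ctrl library at 122.8 CPM. Penk was at 169.3 CPM there from 11 counts (84.5 to 302.9) and Ppp1r1b at 77.0 CPM from 5 counts (24.98 to 179.6), while Drd1, Drd2 and Adora2a had 0 counts, for which the upper limit of the same interval is 56.8 CPM.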

How the results depend on the processing

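With an adjusted p under 0.05 and no fold limit, 9711 genes passed in frontal cortex (1861 by the main rule), 11453 in cerebellum (2339), 9525 in the interaction (1864) and 14488 between control tissues (5065), and 6911 (1354) and 9973 (2103) transcripts. Of the 9 genes 6 passed in cerebellum, as did 6 of their transcripts. DESeq2 called 2738 and 4168 transcripts, 4 of them of the 9 genes in cerebellum. A minimum count of 30 left 1 such transcript, and with the shallow library 992 transcripts, 0 of the 9 genes and 0 of their transcripts were called in cerebellum, where Drd2 failed the filter and the transcript of Scn4b was at 0.97 (log2), under the 2-fold limit. Leaving out 1 library each gave 1837 to 1943 genes in frontal cortex (9 of the 9), 2210 to 2294 in cerebellum (1 to 2), 1786 to 1841 for the interaction (8 to 9), 4903 to 5155 between tissues (7 to 8), and 917 to 1113 and 1357 to 1767 transcripts (11 to 13 and 1 to 3 of the 9 genes), where the counts of 1357 to 1381 in cerebellum were those without an Upf3b-KO library.

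The replicate numbers were not found to pair the samples. Between Ctrl and Upf3b-KO, correlations of deviations from group means ran from -0.04 to 0.06 in frontal cortex (1 of 4 best with its own number). In cerebellum they ran from -0.06 to 0.15 (1 of 3). Between the tissues they ran from -0.099 to 0.036 in Ctrl (0 of 4) and from -0.081 to -0.015 in Upf3b-KO (0 of 3). The main fits of the interaction and of the control tissues treated the libraries of both tissues as independent. The replicate block called 1837 genes in frontal cortex, 458 and 550 transcripts, and 1 transcript of the 9 genes in cerebellum.

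Some values that were not called changed sign, and the cause was not tested. With 1 library left out, the log2 fold change of the short form of Rgs9 lay between -0.353 and 0.085 for frontal cortex and between -0.218 and 0.471 for cerebellum. In cerebellum that of Pde10a-202 ran from -0.182 to 0.299, of Pde10a-207 from -0.122 to 0.099 and of Ppp1r1b-206 from -0.468 to 0.088. The replicate block gave -0.042 for the short form of Rgs9 and -0.0052 for Pde10a-202, and the shallow library -0.0043 for Pde10a-207. The change in share of the leading transcript, in points, ran from -0.191 to 0.381 for Adora2a in frontal cortex, and in cerebellum from -1.25 to 2.81 for Adora2a (-1.25 with the block), from -4.50 to 0.656 for Drd1, from -0.0573 to 0.687 for Penk (-0.0573 with the block) and from -1.75 to 1.21 for Ppp1r1b. Few counts limit Drd1, Drd2 and Adora2a in cerebellum.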
